A study of Mus musculus with 4 samples.

Results

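The genes described here are 53 genes of DNA replication and S phase, chosen by name for their place in the copying of DNA, from origin licensing to the supply of nucleotides. The list was drawn up with earlier results of these data known. They were measured in prostate spheres, balls of cells that grow from single epithelial progenitors in culture. The spheres came from basal cells sorted from adult FVB mice and were treated with vehicle (DMSO) or with DAPT at 5 µM, in medium replaced every 24 h. DAPT inhibits γ-secretase, the protease that cuts Notch receptors to release their active intracellular domain, and the study asked what Notch signalling does to the proliferation and differentiation of these cells. There were 2 arrays for vehicle and 2 for DAPT, each with 1 sphere RNA labelled red and a universal mouse reference labelled green. The labels do not name separate cultures or mice behind the 2 arrays of a treatment, and all p-values therefore measure the spread among these 4 samples alone, which may be technical. Of the 53 genes, 52 had a probe named through its transcript accession (Gins1 had none), and 51 had a red signal well above background on both arrays of one treatment or of each (Rpa1 did not), out of 21459 genes tested.

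Replication starts at origins that are licensed in G1, when the origin recognition complex, CDC6 and CDT1 load the MCM helicase onto DNA. At the start of S phase the kinases CDC7 with DBF4 and cyclin E with CDK2 activate the helicase together with CDC45 and the GINS complex, and polymerases α, δ and ε then copy the strands. Transcription of most of these genes rises at the G1 to S transition under E2F factors, so their mRNA is widely read as a sign of cycling cells.

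Promoters of these genes were searched for E2F words. An E2F word here is any of TTTCCCGC, TTTGGCGC, TTTCGCGC or TTTGCCGC on either strand, counting matches that overlap each other, in the 250 bases before and 50 bases after the start site (RefSeq, GRCm38.p6). Of the 53 genes 44 had such a window, and 17 of these (38.6%) held a word in at least 1 window, against 704 of 27025 genes (2.61%) and 2.27% of all 32851 windows. CCAAT, the word bound by NF-Y, stood in 59.1% of the 44 genes and 41.1% of all genes, and TTTGAA, the word of the cell cycle genes homology region, in 18.2% and 20.2%. TTTGCCGC stood in none of the 44. A match is a description of the letters and not a shown binding site.

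Below are the windows of the 4 genes with the smallest adjusted p, among those that rose with DAPT, whose window holds an E2F word. They are shown because they place the words beside genes of 3 different steps. Each is written 5′ to 3′ on the gene's strand with the E2F words in capitals. Pole2 lies on the minus strand at chr12:69228141-69228440, Mcm3 on the minus strand at chr1:20820263-20820562, Uhrf1 on the plus strand at chr17:56304063-56304362 and Mcm5 on the plus strand at chr8:75109259-75109558.
Pole2: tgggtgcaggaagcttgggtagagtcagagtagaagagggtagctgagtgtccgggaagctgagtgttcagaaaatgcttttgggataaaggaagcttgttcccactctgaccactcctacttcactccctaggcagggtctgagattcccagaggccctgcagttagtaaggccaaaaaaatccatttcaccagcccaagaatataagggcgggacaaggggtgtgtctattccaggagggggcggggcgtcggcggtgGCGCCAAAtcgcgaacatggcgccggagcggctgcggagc
Mcm3: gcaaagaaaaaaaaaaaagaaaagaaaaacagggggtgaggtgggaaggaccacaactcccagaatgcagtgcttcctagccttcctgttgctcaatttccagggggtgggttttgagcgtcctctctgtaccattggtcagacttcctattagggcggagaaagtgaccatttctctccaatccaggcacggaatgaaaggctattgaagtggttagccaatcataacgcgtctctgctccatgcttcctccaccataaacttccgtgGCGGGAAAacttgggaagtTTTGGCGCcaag
Uhrf1: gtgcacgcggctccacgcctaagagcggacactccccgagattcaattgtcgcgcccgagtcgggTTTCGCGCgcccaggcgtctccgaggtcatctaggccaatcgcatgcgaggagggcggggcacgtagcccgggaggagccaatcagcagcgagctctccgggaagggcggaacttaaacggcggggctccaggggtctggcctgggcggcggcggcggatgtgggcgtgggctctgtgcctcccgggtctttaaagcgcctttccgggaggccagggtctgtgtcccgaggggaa
Mcm5: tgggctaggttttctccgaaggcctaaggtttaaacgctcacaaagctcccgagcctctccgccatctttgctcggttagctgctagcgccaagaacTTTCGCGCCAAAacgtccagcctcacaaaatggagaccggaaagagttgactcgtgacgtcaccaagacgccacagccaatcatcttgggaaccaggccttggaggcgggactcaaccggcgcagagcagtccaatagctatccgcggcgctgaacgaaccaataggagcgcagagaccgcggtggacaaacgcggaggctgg
Counted from the start site, Mcm3 has TTTCCCGC on the opposite strand at bases 20 to 27 and TTTGGCGC on its own strand at bases 39 to 46. In Mcm5 TTTCGCGC and, on the opposite strand, TTTGGCGC overlap in 1 block that begins at base -153. Pole2 has TTTGGCGC on the opposite strand at bases 11 to 18, and Uhrf1 has TTTCGCGC beginning at base -185.

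With DAPT, 16 of the 51 tested replication genes rose and none fell. They rose by 0.78 to 1.25 in log2 ratio (1.71-fold to 2.38-fold), and 6 of them at least 2-fold. Over all genes 2.93% rose and 3.93% fell. As the list was chosen with earlier results of these data known, such comparisons describe it and give no independent support. Changes are log2 fold changes of sphere over reference RNA, DAPT minus vehicle, given ± the standard error of the limma fit (n = 2 arrays in each treatment), and a gene passed at a Benjamini-Hochberg adjusted p under 0.05 over all genes. The median change of the 51 genes was 0.62, against -0.06 over all genes, and 45 of the 51 lay above 0. The median log2 ratio of the 51 genes was -0.39 and -0.19 on the vehicle arrays and 0.30 and 0.29 on the DAPT arrays. In 37 genes both DAPT arrays lay above both vehicle arrays and in 3 both lay below, where 22.2% and 31.7% of all genes did so. The count depends on 13 spots of DAPT replicate 2 that sit on a bright local background and were left out. With them in the background fit none of the 51 passed with limma, and the median change was 0.55. With probes well above background on all 4 arrays, 44 of the genes were tested and 13 rose. Since spheres are measured in bulk, a larger share of cells in cycle and more of each mRNA per cycling cell cannot be told apart.

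**Figure D1:**
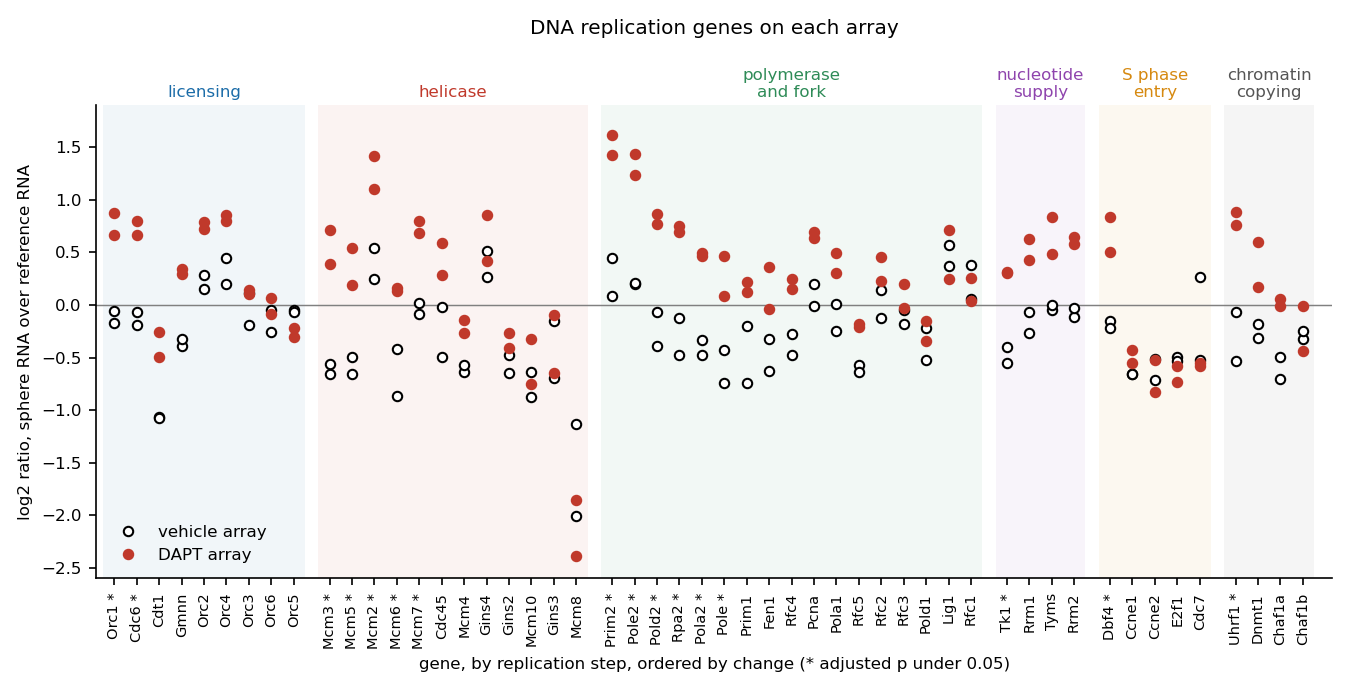
Log2 ratio of sphere over reference RNA on each of the 4 arrays for the 51 tested genes, grouped by replication step and ordered by change, with open points for vehicle, filled points for DAPT and a star for an adjusted p under 0.05. In all 16 starred genes, which were chosen on these ratios, the DAPT points lie above both vehicle points. In the S phase entry group that holds for Dbf4 and Ccne1 only.

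Sphere RNA was rich in basal keratins in both groups, and markers of another cell type fell with DAPT. Krt5 had a mean log2 ratio of 4.65 with vehicle and 4.92 with DAPT, and of the 8 basal markers 0 rose and 1 fell, Krt15 (-1.08, adjusted p = 0.00831). Of 6 smooth muscle markers 1 fell, Myh11. Of 12 fibroblast markers 9 fell with DAPT and none rose, and their summed red signal was 0.104% to 0.135% of that of all tested genes on the vehicle arrays and 0.0332% to 0.0350% on the DAPT arrays. All 12 markers were well above background in at least 1 group, although the labels name sorted basal cells, and their part in the replication result was not tested. Markers of endothelium (0 of 3 tested) and leukocytes (0 of 7) did not pass in either direction. The ratio of red signal to local background had a median of 1.83 to 1.95 per vehicle array and 2.40 to 2.84 per DAPT array, and its part was not tested either.

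Origin licensing had 2 risers among its 9 genes, Orc1 and Cdc6, and both entered the test only through the DAPT arrays, where they are high. With probes required to be well above background on all 4 arrays neither was tested and no licensing gene rose (adjusted p = 0.0521 for Cdt1 and 0.052 for Gmnn). Orc1, the ATPase subunit of the origin recognition complex whose level varies with the cell cycle, had log2 ratios of -0.17 and -0.05 with vehicle and 0.87 and 0.67 with DAPT. It rose by 0.88 ± 0.20 (adjusted p = 0.0197). Cdc6, the loader that joins the complex to bring in the helicase, stood at -0.07 and -0.19 with vehicle and at 0.80 and 0.67 with DAPT, and rose by 0.86 ± 0.19 (adjusted p = 0.0206). A second Cdc6 probe, not well above background in red on any array and so not tested, went the other way (-0.19). On the tested probes the groups did not overlap in either gene, as held upward for 22.2% of all genes. As both genes passed on this same ratio, the gap largely follows from their choice. Neither gene was well above background in red on a vehicle array, so vehicle has only a bound. In mean red signal alone, set against the vehicle arrays' own dim signal, Orc1 was 1.66-fold higher and Cdc6 2.35-fold higher, against 1.84-fold and 1.82-fold in ratio. The true vehicle level may lie below that dim signal. Spread among the arrays is not counted in these folds. Orc1 had log2 red signals of 6.91 and 6.79 with vehicle and 7.93 and 7.22 with DAPT. Folds from 1 channel are open to dye bias, as no dyes were swapped. Their size depends on the processing: with the scanner software's processed signals the changes were 2.52 for Orc1 and 2.05 for Cdc6, and with median centring in place of loess they were 0.47 (adjusted p = 0.183) and 0.01 (adjusted p = 0.979), both short of the threshold. Orc1 lost its call without DAPT replicate 1 (0.78, adjusted p = 0.0742), and Cdc6 without vehicle replicate 2 (0.80, 0.052) or DAPT replicate 1 (0.80, 0.0665).

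The other licensing genes did not pass. Cdt1, the second helicase loader, had log2 ratios of -1.07 and -1.07 with vehicle and -0.50 and -0.25 with DAPT, a change of 0.69 ± 0.20 (adjusted p = 0.0555). Gmnn, which encodes geminin, the inhibitor of CDT1 that blocks relicensing, had a change of 0.68 ± 0.19 (adjusted p = 0.0555), so the estimates for loader and inhibitor were nearly the same. The remaining subunits of the origin complex, which are present through the cycle, had changes of 0.54 for Orc2, 0.51 for Orc4, 0.16 for Orc3, 0.14 for Orc6 and -0.21 for Orc5. Probes of Orc4 disagreed: the 3 probes gave 0.51, -0.19 and 1.04, and the last, a dimmer one, passed on its own (adjusted p = 0.0171 over all probes kept). The brightest probe stood for each gene.

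The helicase step had 5 risers among 12 tested genes, and all 5 are subunits of the MCM2 to MCM7 ring that unwinds DNA. Mcm3 had log2 ratios of -0.65 and -0.56 with vehicle and 0.39 and 0.71 with DAPT, and rose by 1.16 ± 0.20 (adjusted p = 0.00601). Mcm5 went from -0.49 and -0.66 to 0.19 and 0.54, a rise of 0.94 ± 0.21 (adjusted p = 0.0183). Mcm2 stood at 0.25 and 0.54 with vehicle and at 1.11 and 1.42 with DAPT, and rose by 0.87 ± 0.21 (adjusted p = 0.0285). In all 5 of the subunits that rose the lowest DAPT array lay above the highest vehicle array, as it did in 22.2% of all genes. This largely follows from their choice on the same ratio and gives no further support. Mcm6 went from -0.87 and -0.42 to 0.16 and 0.14 (rise of 0.79 ± 0.21, adjusted p = 0.0432). Mcm7 went from -0.08 and 0.02 to 0.68 and 0.80 (rise of 0.78 ± 0.19, adjusted p = 0.0331). The sixth subunit gene, Mcm4, had ratios of -0.64 and -0.57 with vehicle against -0.27 and -0.14 with DAPT. Its change was 0.40 ± 0.19 (adjusted p = 0.239).

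Of the 5 MCM genes that rose, only Mcm3 passed with each array left out in turn. Mcm5 lost its call without DAPT replicate 2 (0.77, adjusted p = 0.0995), and Mcm2 without vehicle replicate 1 (0.72, 0.0783) or DAPT replicate 2 (0.71, 0.14). Mcm6 lost it without vehicle replicate 1 (0.57, adjusted p = 0.155) and without either DAPT array (0.78 and 0.81, adjusted p = 0.0796 and 0.0848), and Mcm7 in the same 3 cases (0.72, 0.83 and 0.72, adjusted p = 0.0687, 0.0526 and 0.132).

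The partners that turn the ring into a moving helicase did not pass. Cdc45 had log2 ratios of -0.49 and -0.02 with vehicle and 0.59 and 0.29 with DAPT and had a change of 0.70 ± 0.22 (adjusted p = 0.082). The GINS genes had changes of 0.22 for Gins2, 0.05 for Gins3 and 0.25 for Gins4, each with an SE of at least 0.20, and Mcm10, a factor that helps activate the helicase, one of 0.22 ± 0.21. Mcm8, which belongs to a separate helicase used in repair, had overlapping groups on its brightest probe, with -2.01 and -1.14 with vehicle and -1.85 and -2.39 with DAPT (change of -0.55 ± 0.28, adjusted p = 0.265). A dimmer Mcm8 probe gave 1.21 (adjusted p = 0.00892 over all probes kept) and was not well above background on either vehicle array, so the probes of this gene disagree. The brightest Mcm8 probe passed downward, at -0.99, once vehicle replicate 1 was left out.

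Polymerase and fork genes held 6 risers among 17 tested, including the largest change of the 51 genes. Prim2, the large subunit of the primase that starts each new strand, had log2 ratios of 0.45 and 0.09 with vehicle and 1.43 and 1.61 with DAPT, and rose by 1.25 ± 0.21 (adjusted p = 0.00436). Pola2, the accessory subunit of polymerase α, went from -0.47 and -0.33 to 0.49 and 0.47 and rose by 0.88 ± 0.19 (adjusted p = 0.018). Polymerase α and primase work as 1 complex of 4 subunits. Its other subunits, Prim1 at 0.64 ± 0.22 (adjusted p = 0.101) and Pola1 at 0.52 ± 0.20 (adjusted p = 0.145), did not pass. Both had groups that did not overlap, as held upward for 22.2% of all genes. However, Pola1 was well above background on only 1 of the 2 vehicle arrays, so it entered the test through the DAPT arrays.

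The leading and lagging strand polymerases each had a riser. Pole2, a subunit of the leading strand polymerase ε, stood at 0.20 and 0.21 with vehicle and 1.43 and 1.24 with DAPT, and rose by 1.14 ± 0.20 (adjusted p = 0.00536). Pole, its catalytic subunit, went from -0.74 and -0.43 to 0.46 and 0.08 and rose by 0.86 ± 0.22 (adjusted p = 0.0338). Its call was lost without vehicle replicate 1 (0.70, adjusted p = 0.0911) and also without DAPT replicate 1 (0.67, 0.148). For polymerase δ, which copies the lagging strand, the accessory subunit gene Pold2 went from -0.39 and -0.07 to 0.77 and 0.87 and rose by 1.05 ± 0.20 (adjusted p = 0.00988). The catalytic subunit gene Pold1 had a change of 0.12 ± 0.20 with overlapping groups, and a second Pold1 probe gave 0.33, also short of the threshold. Both polymerase ε genes of the list thus rose, and 1 of the 2 polymerase δ genes, although the difference between Pold2 and Pold1 was not tested.

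At the fork itself, Rpa2, a subunit of the protein that coats single-stranded DNA, went from -0.48 and -0.13 to 0.75 and 0.69 and rose by 1.02 ± 0.20 (adjusted p = 0.0117). On 1 of the 2 vehicle arrays Rpa2 was not well above background, and the same held for Pole2, so both entered the test through the DAPT arrays. With median centring Pole2 had a change of 0.60 (adjusted p = 0.0823) and Rpa2 one of 0.69 (adjusted p = 0.077), and neither passed. None of the 5 RFC genes, whose complex loads the sliding clamp, passed. Their changes ran from -0.07 for Rfc1 through 0.21 for Rfc3, 0.34 for Rfc2 and 0.41 for Rfc5 to 0.58 for Rfc4. Pcna, the clamp and a common marker of proliferation, had ratios of -0.01 and 0.20 with vehicle and 0.64 and 0.69 with DAPT, a change of 0.57 ± 0.20 that did not pass (adjusted p = 0.101). Fen1, the flap nuclease of the lagging strand, had a change of 0.64 ± 0.22 (adjusted p = 0.0959), and Lig1, the ligase that joins its fragments, one of 0.01 ± 0.22 with overlapping groups.

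**Figure D2:**
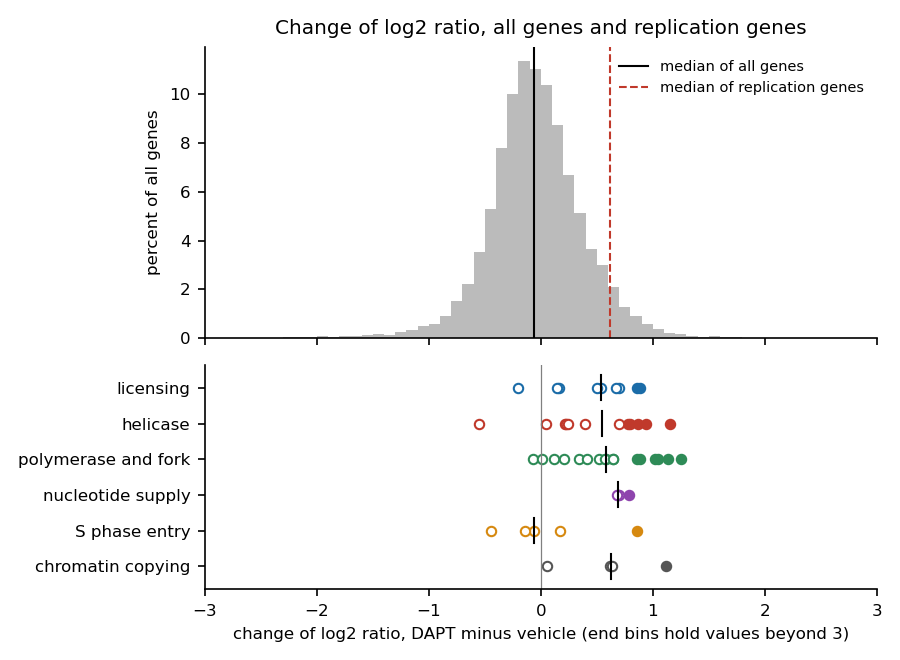
Histogram of the change of log2 ratio (DAPT minus vehicle) over all 21459 genes with medians marked, above the changes of the 51 replication genes by step, with filled points for genes past the threshold and a bar at each step's median. The medians of 5 steps lie between 0.54 and 0.69, and that of S phase entry at -0.06.

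The 4 genes of nucleotide supply had nearly equal changes, from 0.69 to 0.78, and 1 of them passed. Tk1, the thymidine kinase of the salvage route, had log2 ratios of -0.55 and -0.40 with vehicle and 0.30 and 0.31 with DAPT and rose by 0.78 ± 0.19 (adjusted p = 0.0313). Tk1 lost its call without vehicle replicate 1 (0.71, adjusted p = 0.0736) and without either DAPT array (0.79 and 0.78, adjusted p = 0.0699 and 0.0923). Rrm2, the S phase subunit of ribonucleotide reductase, went from -0.11 and -0.03 to 0.65 and 0.58, a change of 0.69 ± 0.19 (adjusted p = 0.0527). Rrm1, its large subunit, had a change of 0.69 ± 0.20 (adjusted p = 0.057) and Tyms, thymidylate synthase, one of 0.69 ± 0.20 (adjusted p = 0.0632). In all 4 genes the groups did not overlap, as held upward for 22.2% of all genes. A second Tyms probe gave 0.67.

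Genes of S phase entry had a median change of -0.06 over 5 genes, of which 1 rose, and the difference from the other steps was not tested. Dbf4, the activating subunit of the kinase that fires origins, had log2 ratios of -0.15 and -0.22 with vehicle and 0.50 and 0.84 with DAPT and rose by 0.86 ± 0.20 (adjusted p = 0.0259). Without vehicle replicate 2 it was at the margin (0.82, adjusted p = 0.0533), and without DAPT replicate 2 it did not pass (0.69, 0.155). Cdc7, the catalytic partner of DBF4, stood at -0.52 and 0.27 with vehicle and at -0.58 and -0.55 with DAPT, a change of -0.44 ± 0.25 (adjusted p = 0.314). The vehicle arrays differed widely: without vehicle replicate 1 Cdc7 stood at -0.83 and passed downward (adjusted p = 0.0348), and its smallest change with 1 array left out was -0.05. A dimmer Cdc7 probe gave 0.05. The cyclin genes Ccne1 at 0.17 ± 0.19 and Ccne2 at -0.06 ± 0.20, and E2f1 at -0.14 ± 0.19, which encodes the best-known activator of this gene set, did not pass. Ccne2 and E2f1 lay above 0 with median centring and with the processed signals, and Ccne1 below 0 in the red channel alone, so these have no settled direction.

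Of the 4 genes that copy chromatin marks along with DNA, Uhrf1 rose. Uhrf1, whose protein recognises hemimethylated DNA and recruits the methyltransferase DNMT1, had log2 ratios of -0.53 and -0.07 with vehicle and 0.76 and 0.88 with DAPT, a rise of 1.12 ± 0.21 (adjusted p = 0.00939). A second Uhrf1 probe gave 1.10, close to the first. Dnmt1 had a change of 0.63 ± 0.21 (adjusted p = 0.0939), and the histone chaperone genes Chaf1a and Chaf1b of 0.62 ± 0.20 (adjusted p = 0.0793) and 0.06 ± 0.21.

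The channels were then read apart. After loess and Aquantile normalization the median change of log2 red signal (sphere RNA) was 0.80 over the 51 genes and -0.04 over all genes, and that of log2 green signal (reference RNA) was 0.23 and 0.03. In the 16 genes that rose the red change ran from 0.73 to 1.87 and the green one from -0.15 to 0.99. The ratio change is red minus green, so that red exceeds green in them follows from their choice. In 15 of the 16 the red groups did not overlap, with Tk1 the exception at 11.09 and 9.80 against 11.52 and 11.00. Over all genes 21.6% lay apart upward in red, but the 16 were chosen on a ratio that contains this signal. Prim2 had log2 red signals of 7.78 and 7.14 with vehicle and 9.09 and 9.18 with DAPT, and log2 green signals of 7.33 and 7.05 against 7.66 and 7.57. Pola2 had the largest red change, 1.87, with a green change of 0.99, so its reference signal was also higher on the DAPT arrays.

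Tested on red signal alone, none of the 51 genes passed with limma after adjustment, and 1 of all 21459 did. At an unadjusted p under 0.05, 27 of the 51 were higher in red and 0 lower, against 6.37% and 5.91% of all genes. In red Mcm5, for example, stood at 9.32 and 10.24 with vehicle and at 10.95 and 11.13 with DAPT. Both DAPT arrays lay above both vehicle arrays in red for 37 of the 51 genes and below them in 1, where 21.6% and 25.1% of all genes did so. Some genes had a small ratio change and a larger one in each channel. Orc3 stood 1.12 higher in red and 0.95 in green, Gins4 1.04 and 0.79, and Mcm8 1.05 and 1.60. For Orc3 and Mcm8 these means rest largely on 1 low vehicle array. Orc3 had log2 red signals of 9.16 and 7.11 with vehicle and 9.26 and 9.24 with DAPT. Those of Mcm8 overlapped, at 8.04 and 10.43 with vehicle and 10.37 and 10.19 with DAPT. The ratio change of 0.70 for Cdc45 was made of -0.53 in green and 0.16 in red.

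**Figure D3:**
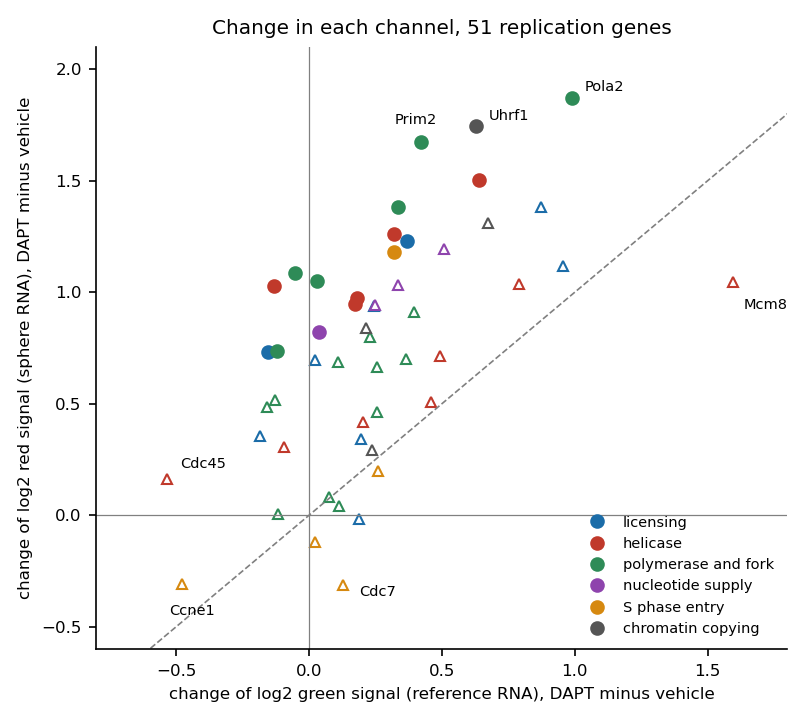
Change of log2 green signal (reference RNA, horizontal) against change of log2 red signal (sphere RNA, vertical), DAPT minus vehicle, for the 51 genes, coloured by step, with filled circles for genes past the threshold in ratio, open triangles for the others and a dashed line where both channels change equally. The 16 filled circles lie between 0.73 and 1.87 in red and between -0.15 and 0.99 in green, above the dashed line because they were chosen on the ratio.

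Across the arrays, 7 genes passed with all 4 arrays and with each array left out in turn, namely Mcm3, Pola2, Prim2, Pold2, Pole2, Rpa2 and Uhrf1, where 1.02% of all genes rose in all 5 fits. The count of risers was 11 without vehicle replicate 1, 16 without vehicle replicate 2, 12 without DAPT replicate 1 and 10 without DAPT replicate 2. Without vehicle replicate 1, Cdc7 and Mcm8 fell. With the processed signals 13 genes rose, of which 8 were among the 16. Of those 7 genes, Prim2 (0.70, adjusted p = 0.209), Pola2 (1.04, 0.0927) and Pole2 (0.99, 0.0907) did not pass there, nor did Mcm2, Mcm5, Mcm6, Mcm7 and Pole, while Tk1 stood at 1.44 and Dbf4 at 1.34. With median centring 27 rose, 12 of them among the 16, and Orc1, Cdc6, Pole2 and Rpa2 did not pass, while Mcm6, Mcm7 and Tk1 stood at 1.24, 1.23 and 1.22. Scale normalization left out Mcm2 (0.69, adjusted p = 0.0853) and Mcm7 (0.70, adjusted p = 0.0554). Thus Mcm3, Pold2 and Uhrf1 passed with each array left out and under these 3 settings, though not with the bright background spots kept or in the red channel alone. Feature Extraction marked 8.70% and 42.0% of the spots of these genes on the vehicle arrays and 89.9% and 84.1% on the DAPT arrays as non-uniform or outliers. Over all spots it marked 11.5% and 29.2% on the vehicle arrays and 49.6% and 50.9% on the DAPT arrays. Without marked spots 12 of the genes could be tested. Of the 16 these held Orc1, Cdc6, Pole2 and Rpa2, which rose again but are the ones that were dim on a vehicle array, so this gives no support to the other 12.

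**Figure D4:**
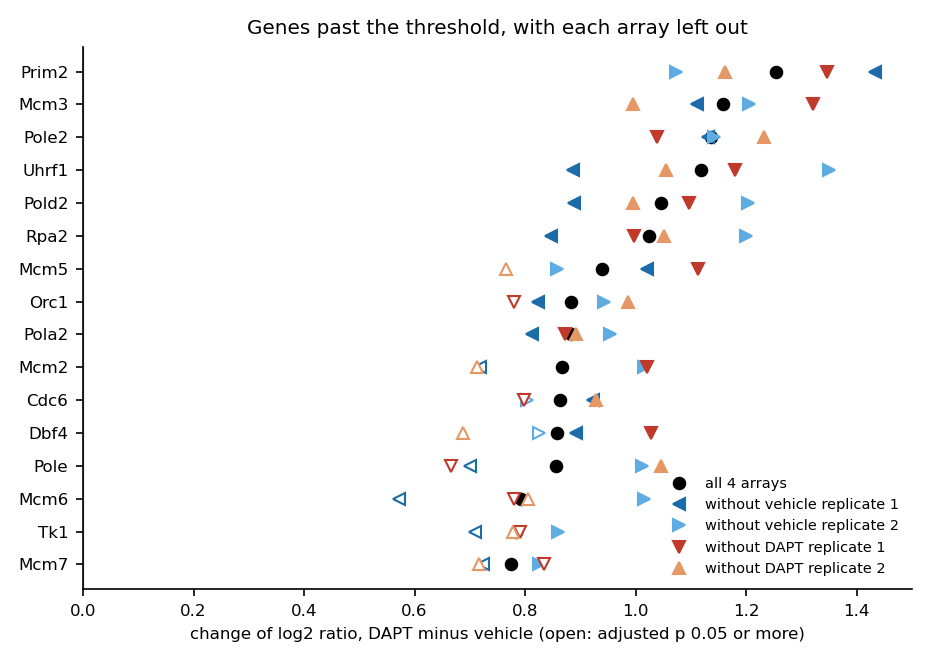
Change of log2 ratio (DAPT minus vehicle) for the 16 genes past the threshold, with all 4 arrays (black circles) and with each array left out (triangles), open where the adjusted p was 0.05 or more. Every point lies between 0.57 and 1.43, and 7 genes have filled points throughout.

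Other genes of replication and S phase, from a wider list of 76, were read from the same fit. This list too was chosen with earlier results of these data known. Of 69 tested, 10 (14.5%) rose and none fell, where 2.93% of all genes rose and 3.93% fell. The median change was 0.31, against -0.06 over all genes. Among 23 other fork and checkpoint genes Timeless, which guards stalled forks, rose by 0.86, Topbp1, which helps fire origins, by 0.80 and Dtl, which targets CDT1 for destruction, by 0.79. Of 14 other nucleotide genes 1 rose, Atic, an enzyme of purine synthesis (by 1.03). Among 16 other regulators the cyclin gene Ccna2 rose by 1.21. E2f4, usually a repressor of this gene set in resting cells, also passed (0.98), but it was not well above background on either vehicle array and had a change of 0.09 with median centring (adjusted p = 0.828). In mean red signal alone E2f4 was 2.23-fold higher than a dim vehicle level, with the spread of the arrays not counted. Of 16 other genes of chromatin copying, the acetyltransferase gene Hat1 rose by 1.26, the cohesin acetyltransferase gene Esco2 by 1.20, the helicase gene Hells by 1.18 and the topoisomerase gene Top2a by 1.05. Calls were lost for Dtl without vehicle replicate 2 (0.68) or either DAPT array (0.83 and 0.76), for Topbp1 without vehicle replicate 1 (0.71) or DAPT replicate 1 (0.59), for E2f4 without DAPT replicate 1 (0.79), and for Timeless (0.75) and Top2a (0.84) without DAPT replicate 2. Hells and Esco2 were well above background on 1 of the 2 vehicle arrays, and Esco2 did not pass with median centring (0.77). With the processed signals 5 of the wider list rose, and Timeless, Topbp1, Dtl, E2f4, Hat1 and Esco2 did not pass.

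Genes that rose and genes that did not were also compared for E2F words. Of the 16 that rose 14 had a promoter window, and 8 of these held a word: Orc1, Cdc6, Mcm3, Mcm5, Mcm6, Mcm7, Pole2 and Uhrf1. Of the genes that were tested and did not pass, 9 of 29 held one, among them Cdt1, Dnmt1, Pola1 and Lig1. The share was thus 57.1% against 31.0%, on small numbers and with no test. Prim2 and Pole had no window in the table, and Mcm2, Pola2, Pold2, Rpa2, Tk1 and Dbf4 had a window without these letters.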

How the data were processed

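Sphere RNA (2.5 µg in the work-up) was measured on 4 arrays with 2 colours, 2 per group, all on 1 slide in 1 scan, so no slide or scan batch could be fitted. Per the file headers, Agilent Feature Extraction 10.7.3.1 wrote the deposited spot and background intensity values, not normalized, and the processed signals that it had background-subtracted and dye-normalized. The deposited log10 ratio served only to find the scale of the authors' deposited log2 value table, which correlated at 0.869 to 0.902 with it and at 0.9995 to 0.9998 with the ratios computed here. Its column medians were 0.00072, -0.011, -0.015 and -0.011. Its normalization was not given in the sources used here. No array had swapped dyes, so the direction rests on the dyes in the labels.

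Log ratios came from limma 3.58.1 in R 4.3.3: normexp on median signals with an offset of 50, then loess with control spots at weight 0. The 13 spots of DAPT replicate 2 whose local background exceeded 5 times the array's median were left out. Of 41174 probes 24375 were named through RefSeq accessions (GRCm38.p6). A probe was kept where red was well above background on the 2 arrays of either treatment, and the brightest such probe represented its gene. Groups were compared with lmFit and eBayes (2 residual degrees of freedom plus 10.3 from the prior), with the Benjamini-Hochberg adjustment over 21459 genes. The tests were tried on simulated data. No member spot was saturated. Any of the 53 genes could be named, with values on every array for those that passed, and genes of the wider list were named where they passed. The number of arrays limits the precision. The members and lists were chosen with earlier results of these data known.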

Additional observations from a re-analysis of the deposited data

How the results depend on the processing

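Of 21459 genes 628 rose and 844 fell (42.7% of the calls upward), and of the replication genes 16 rose. With the processed signals 623 genes were called (289 higher and 334 lower), with 13 replication genes and 5 of the wider list, and the median change of the replication genes moved from 0.62 to 0.93. Median centring called 1242 genes higher and 520 lower, 27 replication genes and 19 of the wider list, with medians of 0.83 for the replication genes and 0.11 for all genes (-0.06 with loess), and scale normalization 381 higher and 1002 lower, with 15 replication genes. With the bright background spots kept 75 genes were called (4 higher), and 0 replication genes and 0 of the wider list. Without marked spots 504 of 8679 genes were called (293 higher), with 4 replication genes and 4 of the wider list. The red channel alone called 1 gene, 0 replication genes and 0 of the wider list with limma, with a median of 0.80 for the replication genes. At an unadjusted p under 0.05 with limma, 27 replication genes and 21 of the wider list were higher, against 6.37% of all genes. Median centring of the processed red signal called 1 replication gene in the red channel. Leaving out 1 array gave 10 to 16 replication genes, 7 to 13 of the wider list, 1075 to 1846 genes in all, and medians of 0.49 to 0.68. The authors' value table called the same 16 replication genes. With the replicate block 21 replication genes rose, all 16 among them, 12 of the wider list were called and 2062 genes in all. The labels do not say whether arrays of the same replicate number share a litter, batch or day. Deviations of same-numbered arrays from their group means correlated at 0.094 over genes, which with 2 pairs only cannot settle this. The slide could not be a block since there was only 1.

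The sign of 10 replication genes that did not pass changed. With the processed signals Orc5 stood at 0.049, Mcm8 at 0.14, Rfc1 at 0.12, Ccne2 at 0.59 and E2f1 at 0.020. With median centring Gins3 was -0.31, Rfc1 0.036, Ccne2 0.18 and E2f1 0.064. With scale normalization Lig1 was -0.099 and Ccne2 0.085, and with bright background spots kept Lig1 was -0.052, Ccne2 0.051 and E2f1 0.053. In the red channel alone Mcm8 was 1.05, Rfc1 0.040, Ccne1 -0.31 and Ccne2 0.20, and Mcm8 was 0.33 as the mean of its probes. Leaving out 1 array gave -0.23 to 0.32 for Gins3, -0.029 to 0.27 for Pold1, -0.24 to 0.091 for Rfc1, -0.23 to 0.24 for Lig1, -0.21 to 0.091 for Ccne2 and -0.16 to 0.27 for Chaf1b. The causes were not tested. The smallest change that passed among the replication genes was 1.71-fold.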
